A study of Caenorhabditis elegans with 6 samples.

Results

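The ceh genes (C. elegans homeobox) encode transcription factors that bind DNA through a homeodomain. They were taken as all genes whose single symbol in the platform's gene table has the form ceh and a number, leaving out ceh-12 and ceh-13. This gave 58 of 17118 genes, read by 72 of 22548 probe sets. The probe set with the highest mean over the 6 arrays stood for each gene, and all 58 were tested without a filter on low values. The members were taken by name, and the rule was set with earlier results of these data known.

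Poly(A) RNA was measured on 6 arrays of 1 colour in L2 larvae kept at 25 °C. Of these, 3 came from the wild-type strain N2 and 3 from unc-37(e262) mutants, and the labels call them biological replicates. In both groups the RNA was pulled down with a 3X FLAG-tagged form of the poly(A) binding protein PAB-1, made in DA and VA motor neurons, the A class, under the unc-4 promoter, and amplified by in vitro transcription in 2 rounds. Such a pull-down enriches the RNA of the tagged cells and does not purify it. The labels do not say how the tag was carried, nor what e262 alters.

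Homeodomain proteins act in combination, and the set that a neuron makes helps to fix which class it becomes. UNC-37 is a corepressor of the Groucho family. Groucho proteins do not bind DNA themselves, and homeodomain proteins are among the factors that bring them to their targets. In A-class motor neurons the homeodomain protein UNC-4 acts with UNC-37 to keep genes of other motor neuron classes off. The comparison asks which ceh transcripts differ when unc-37 is mutant. Values are log2 intensities, and changes are differences of unc-37 from wild type on that scale, with the standard error (SE) of a moderated linear model (limma). A gene was called at a Benjamini-Hochberg adjusted p below 0.05 over all 22548 probe sets.

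In unc-37 arrays 3 of the 58 ceh genes rose, ceh-6, ceh-10 and ceh-38, and 1 fell, ceh-32. Over all 17118 genes 3.94% were called higher and 2.81% lower, 6.75% together, so the members' counts lie near the background in both directions. The change exceeded 2-fold in ceh-6 and stayed under 1.5-fold in the other 57. Among all genes 2.02% changed by at least 2-fold and 6.26% by at least 1.5-fold. The median change of the 58 was -0.04, with quartiles of -0.11 and 0.09. For all genes the median was -0.01, with quartiles of -0.13 and 0.12. Positive changes were found in 24 of the 58 (41.4%) and in 46.6% of all genes. An unadjusted p below 0.05 was reached by 10 ceh genes, or 17.2%, against 21.4% of all genes. In whole pulled-down samples fewer cells of a type and less RNA per cell cannot be told apart.

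**Figure D1:**
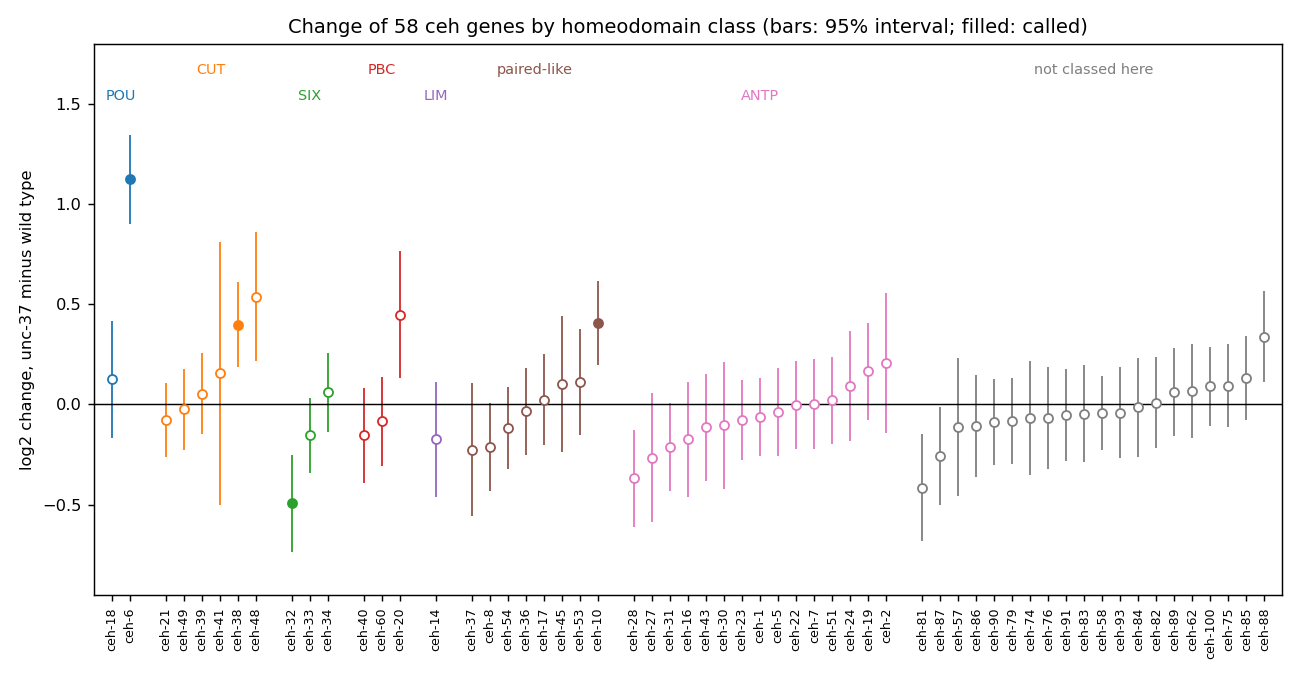
Log2 change (unc-37 minus wild type, y axis) of the 58 ceh genes at the brightest probe set, grouped by homeodomain class and ordered by change within each. Points are estimates from 3 arrays per group, bars are 95% intervals, and filled points are called. The estimate of ceh-6, at 1.12, lies above those of all other members, and the other called genes lie at 0.41 (ceh-10), 0.40 (ceh-38) and -0.49 (ceh-32).

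The POU class holds ceh-6 and ceh-18. ceh-6 is related to the vertebrate Brn genes and is known for its part in the excretory canal cell and in several neurons. Its log2 level was 5.78, 5.75 and 5.72 on the wild-type arrays and 6.80, 6.79 and 7.03 on the unc-37 arrays. The lowest unc-37 array lay 1.01 above the highest wild-type array. ceh-6 rose by 1.12 ± 0.10 (SE, n = 3 per group here and below), or 2.18-fold, with a limma adjusted p of 0.00129. The wild-type arrays were close together (SD 0.03) and the unc-37 arrays were less so (SD 0.14). ceh-6 was the only member that stayed called in each of the 14 refits of the model, at changes of 1.04 to 1.17 with single arrays left out. When the arrays were scaled to 18 pan-neuronal genes, which lowers every change by 0.58, its change was 0.54 (adjusted p = 0.00144). Its only probe set is of the kind (_s_at) that can match more than 1 transcript.

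ceh-18 acts in the sheath cells of the gonad, where it is needed for normal control of oocyte maturation. Its level was 8.17, 8.39 and 8.65 in wild type and 8.59, 8.47 and 8.53 in unc-37. These overlap, and the change of 0.13 ± 0.13 was not called (adjusted p = 0.643). Its 95% interval ran from -0.17 to 0.42, so that a change like that of ceh-6 lies outside it. A dimmer second probe set, at a mean of 4.85, changed by -0.02 ± 0.09 (adjusted p = 0.939).

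**Figure D2:**
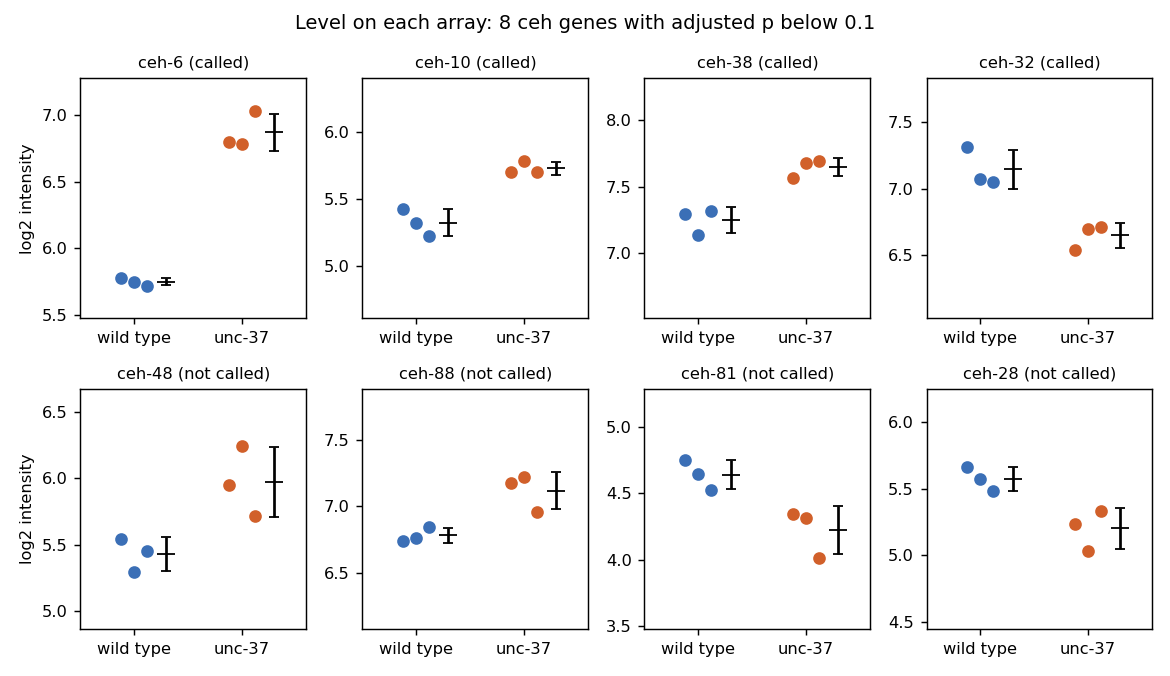
Log2 intensity (y axis, each panel spanning the same number of log2 units) on each array for the 8 ceh genes with an adjusted p below 0.1. Points are arrays, bars beside them mean ± SD (n = 3 per group). In all 8 the arrays of the groups do not overlap, and the gap of ceh-6 (1.01) is wider than those of the other 7 (0.12 to 0.34).

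The CUT class comprises homeodomain factors with a cut domain next to the homeodomain. Several of them are made in all neurons and together drive genes that all neurons use. Of the 6 measured members, ceh-38 rose and the other 5 were not called. ceh-38 was at 7.29, 7.14 and 7.32 in wild type and at 7.57, 7.68 and 7.69 in unc-37. The groups were 0.25 apart, and ceh-38 changed by 0.40 ± 0.09 (adjusted p = 0.0426). Its second probe set, dimmer at a mean of 6.35, changed by -0.08 ± 0.12 (adjusted p = 0.788), so that the rise stands in 1 of 2 probe sets.

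ceh-48, another CUT gene, was at 5.54, 5.30 and 5.45 in wild type and at 5.95, 6.24 and 5.72 in unc-37. All 3 unc-37 arrays lay above the wild-type arrays, and the change of 0.54 ± 0.14 was larger than that of ceh-38. The unc-37 arrays were spread (SD 0.26), and it was not called (adjusted p = 0.0626). With single arrays left out, ceh-48 was called in 1 of 6 refits, the one without unc-37 replicate 3, its lowest mutant array (0.66, 0.0301). Over the 6 refits its change ran from 0.40 to 0.66 and the limma adjusted p from 0.0301 to 0.21. Its single probe set leaves no second reading.

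ceh-39, ceh-21 and ceh-41 are CUT genes that lie in a row, with at most 2 other coding genes between any pair, per the RefSeq table of assembly WBcel235. ceh-39 is also known as a signal by which embryos count X chromosomes. At the brightest probe sets their changes were 0.05 (ceh-39), -0.08 (ceh-21) and 0.16 (ceh-41), and none was called. For ceh-41 the unc-37 arrays ranged from 5.37 to 6.64, the widest spread of any member (SD 0.65), and its interval ran from -0.50 to 0.81. The other probe set of ceh-41, almost as bright at a mean of 5.92, went the other way at -0.14 ± 0.10 (adjusted p = 0.45). There the arrays do not overlap and the interval ran from -0.36 to 0.075. A dim probe set of ceh-39, at a mean of 4.58, changed by 0.40 ± 0.11 (adjusted p = 0.0774), with arrays that do not overlap, while its remaining probe set was at 0.13 (0.549). ceh-49 completes the class at -0.02 ± 0.09 (0.916).

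In the arrays where ceh-38 rose, 11 of 18 pan-neuronal genes rose too and none fell, with a median change of 0.66. Their summed intensity lay between 7387 and 8688 in wild type and between 12405 and 13148 in unc-37. The part of that shift in the values of ceh-38 and ceh-48 was not tested. With the arrays scaled to those 18 genes, ceh-38 stood at -0.19 (adjusted p = 0.114), ceh-48 at -0.05 (0.75) and ceh-10 at -0.18 (0.126).

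Paired-like genes include several that fix the identity of single neuron classes. Of 8 measured, ceh-10 rose and 7 were not called. ceh-10 is related to the vertebrate Chx10 gene and acts in the AIY interneurons and the CAN neurons. It was at 5.43, 5.32 and 5.22 in wild type and at 5.70, 5.79 and 5.70 in unc-37, with a gap of 0.28 between the groups. The change was 0.41 ± 0.09, or 1.33-fold (adjusted p = 0.0369), on its only probe set. The call ended with any single array left out (adjusted p = 0.065 to 0.122) at changes of 0.36 to 0.46.

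The Otx-related genes ceh-36, which acts in the ASE and AWC sensory neurons, and ceh-37, which acts in AWB, are direct neighbours. They changed by -0.04 ± 0.10 and -0.23 ± 0.14. Neither was called (adjusted p = 0.882 and 0.428). ceh-17, related to Phox2 and needed in the ALA and SIA neurons, was at 0.02, and ceh-8, related to Rx, at -0.21 (0.258) with arrays that do not overlap. The rest, ceh-45 (goosecoid-related), ceh-53 and ceh-54, lay between -0.12 and 0.11. The LIM gene ceh-14, which acts in the AFD thermosensory neuron, was at -0.17 ± 0.13 (0.491), with its second probe set at -0.06. As a marker of sensory neurons pulled down, none of 10 ciliated sensory neuron genes was called by limma and none had an unadjusted p below 0.05. Their median change was -0.06. Of these 10, 5 had a mean level below the median of all probe sets and 2 lay in the lowest 25%, which limits what they can show. They do not stand for other neuron classes. Of 5 B-class motor neuron markers 4 were called higher (median change 0.95), and of 5 GABA neuron markers 1 was (median change 0.12). The cause of those rises was not tested.

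The sine oculis class encodes relatives of the fly eye gene of that name. Of 3 measured, ceh-32 fell. It is related to the vertebrate Six3 and Six6 genes and is made in head epidermis and head neurons, where it is needed to shape the head. ceh-32 was at 7.32, 7.07 and 7.05 in wild type and at 6.54, 6.70 and 6.71 in unc-37. All mutant arrays lay below all wild-type arrays, by at least 0.34. The change was -0.49 ± 0.11, or 1.41-fold lower (adjusted p = 0.031). The second probe set, with a mean level of 5.52, changed by -0.01 ± 0.09 (adjusted p = 0.968), and its interval of -0.21 to 0.19 does not reach the change of the brighter one. With single arrays left out the call stood only without wild-type replicate 3 (0.0368).

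Of 8 hypodermis markers on the same arrays, 1 fell, the collagen gene dpy-13 (-0.91, adjusted p = 0.0451), and 7 were not called. Those 7 ranged from -1.60 (dpy-5, 0.0727) to 0.59 (dpy-7, 0.203), and the median change of the 8 was -0.31. Their summed intensity was 13807 to 20604 in wild type and 7537 to 13043 in unc-37. That sum rests mostly on the brightest of the 8, dpy-13, sqt-3 and dpy-5, with wild-type means of 12.90, 12.13 and 11.29. It therefore does not read the 8 evenly. By mean level 2 of the 8 lay below the median of all probe sets, and none lay in the lowest 25%. Their part in the value of ceh-32 was not tested.

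The direct neighbours ceh-33 and ceh-34 complete the class. ceh-34 acts in the neurons of the pharynx. It was at 7.09, 7.17 and 7.10 in wild type and 7.20, 7.25 and 7.10 in unc-37, overlapping ranges with a change of 0.06 ± 0.09 (adjusted p = 0.757). ceh-33 changed by -0.15 ± 0.08 (0.332). Its arrays were tight, with SDs of 0.01 and 0.04, and the groups did not overlap, by 0.09.

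The PBC genes ceh-20, ceh-40 and ceh-60 encode relatives of Pbx and extradenticle, partners of Hox proteins. ceh-20 was at 9.55, 9.63 and 9.35 in wild type and at 9.76, 9.89 and 10.23 in unc-37. The groups do not overlap, and the change of 0.45 ± 0.14 was not called (adjusted p = 0.104). Its second probe set was at 7.24, 7.12 and 7.20 against 7.66, 8.30 and 7.51, again without overlap, at 0.64 ± 0.19 (0.0922). Both probe sets thus point the same way and miss the threshold each on its own. When the probe sets of a gene were averaged, ceh-20 was called at 0.54 ± 0.11 (0.0243), and under the pan-neuronal scaling its change was -0.14 (0.396). ceh-40 was at -0.15 (0.455). ceh-60, which acts in the intestine in making yolk proteins, was at -0.08 (0.692), with a second probe set at 0.07. unc-62, the Meis-related partner of PBC proteins, was at 0.28 ± 0.12 (0.256).

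The ANTP class, which takes in the NK-like, Bar, engrailed and distal-less genes, holds 15 members, and none was called. By limma 1 of them, ceh-28, had an unadjusted p below 0.05. ceh-28, an NK2-related gene of the M4 motor neuron of the pharynx, was at 5.66, 5.57 and 5.48 in wild type and 5.23, 5.03 and 5.33 in unc-37. The groups do not overlap, and the change was -0.37 ± 0.11 (adjusted p = 0.0849).

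ceh-22, related to tinman and Nkx2 genes, acts in pharyngeal muscle and has 2 probe sets of almost equal brightness. The brighter was at 6.10, 6.14 and 6.14 in wild type and 6.19, 6.22 and 5.97 in unc-37, with no difference beyond the spread (0.00 ± 0.10, adjusted p = 0.995). The other was at 6.19, 6.36 and 6.28 against 5.80, 5.81 and 5.98, and it was called at -0.41 ± 0.10 (0.0409). Their means over all arrays, 6.13 and 6.07, are so near that which of them stands for ceh-22 turns on 0.06. Of 7 pharynx markers, phat-2, a gland gene, fell (-1.52, 0.0172) and 6 were not called. The muscle myosin genes myo-1 and myo-2 were at -0.12 and -0.09. The summed intensity of the 7 was 3238 to 4206 in wild type and 2529 to 3254 in unc-37, and its part in the values of ceh-22 and ceh-28 was not tested.

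Other ANTP genes lay between -0.27 and 0.21. They include ceh-16, the engrailed gene, which acts in seam cells (-0.17 ± 0.13, adjusted p = 0.487), and ceh-43, the distal-less gene (-0.11 ± 0.12, 0.646). The Bar-related neighbours ceh-30, which keeps the CEM neurons of males alive, and ceh-31 were at -0.11 and -0.21. ceh-2, related to empty spiracles, was at 0.21 ± 0.15 (0.499), and ceh-19, which acts in the MC neurons of the pharynx, at 0.17 ± 0.11 (0.427). ceh-24, ceh-27 and ceh-51, all NK-like, were at 0.09, -0.27 and 0.02. ceh-1, ceh-5, ceh-7 and ceh-23 lay between -0.08 and 0.00. For 13 of the 15 the 95% interval at the brightest probe set excludes a change of 1.5-fold in either direction on these arrays. ceh-22 is among the 13, though the interval of its other probe set, -0.63 to -0.20, takes in a 1.5-fold fall. However, 11 of the 15 had a mean level below the median of all probe sets, and 6 lay in the lowest 25%. Dim signal limits what such an interval can say of the transcript.

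The remaining 20 genes, most of them with divergent homeodomains, were not classed here, and none was called. ceh-88 was at 6.74, 6.76 and 6.84 in wild type and 7.18, 7.22 and 6.96 in unc-37, at 0.34 ± 0.10 (adjusted p = 0.0911). ceh-81 was at 4.75, 4.65 and 4.53 against 4.35, 4.31 and 4.02, at -0.42 ± 0.12 (0.077). In both the groups do not overlap. ceh-81 lies in a row with ceh-82 and ceh-83, which were at 0.01 and -0.05. The other gene with an unadjusted p below 0.05 was ceh-87, at -0.26 ± 0.11 (0.216). The other 17 changed by -0.11 to 0.13.

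Adding the genes with an adjusted p below 0.1 gives 5 higher (ceh-48 and ceh-88 with the 3 called) and 3 lower (ceh-28 and ceh-81 with ceh-32). Over all genes this threshold takes 6.24% higher and 4.64% lower. Arrays of the groups did not overlap in 7 ceh genes higher and 10 lower, against 12.6% and 13.7% of all genes. That is 29.3% of the members beside 26.4% of all genes. The 95% interval excluded a 1.5-fold change in either direction in 48 of the 58, all of them among the 54 not called. Over all genes it did so in 13453 of 17118, so the members lie near the background here too. Dim signals limit what can be seen: 32 of the 58 had a mean level below the median of all probe sets, and 18 lay in the lowest 25%.

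**Figure D3:**
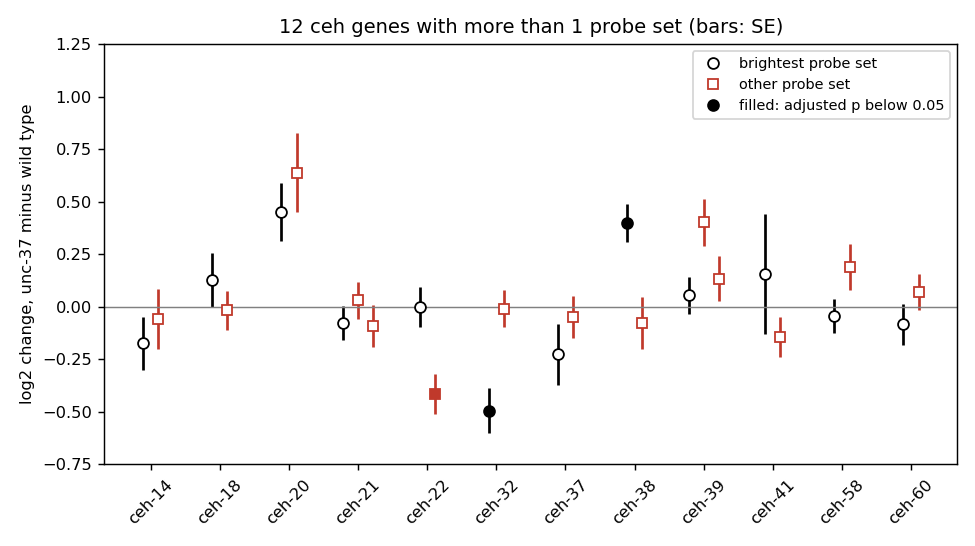
Log2 change (y axis) of every probe set of the 12 ceh genes that have more than 1, with the brightest as black circles and the others as red squares. Bars are SE and filled marks are called. For ceh-32 and ceh-38 the call stands in the brightest probe set alone, for ceh-22 in the other one alone (-0.41), and the probe sets of ceh-20 lie at 0.45 and 0.64.

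Among the 58 genes, 46 rest on 1 probe set and 12 on more. Those 12 have 14 further probe sets, of which 8 share the sign of the brightest and 6 do not. The 1 called further probe set is that of ceh-22, where 6.42% of all probe sets were called. The largest disagreements were those of ceh-32, where the brightest lay 0.48 below the other, ceh-38, where it lay 0.47 above, and ceh-22, where it lay 0.41 above. The probe sets of 13 members at the brightest are of the _s_at kind, ceh-6, ceh-18, ceh-22, ceh-34 and ceh-88 among them.

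**Figure D4:**
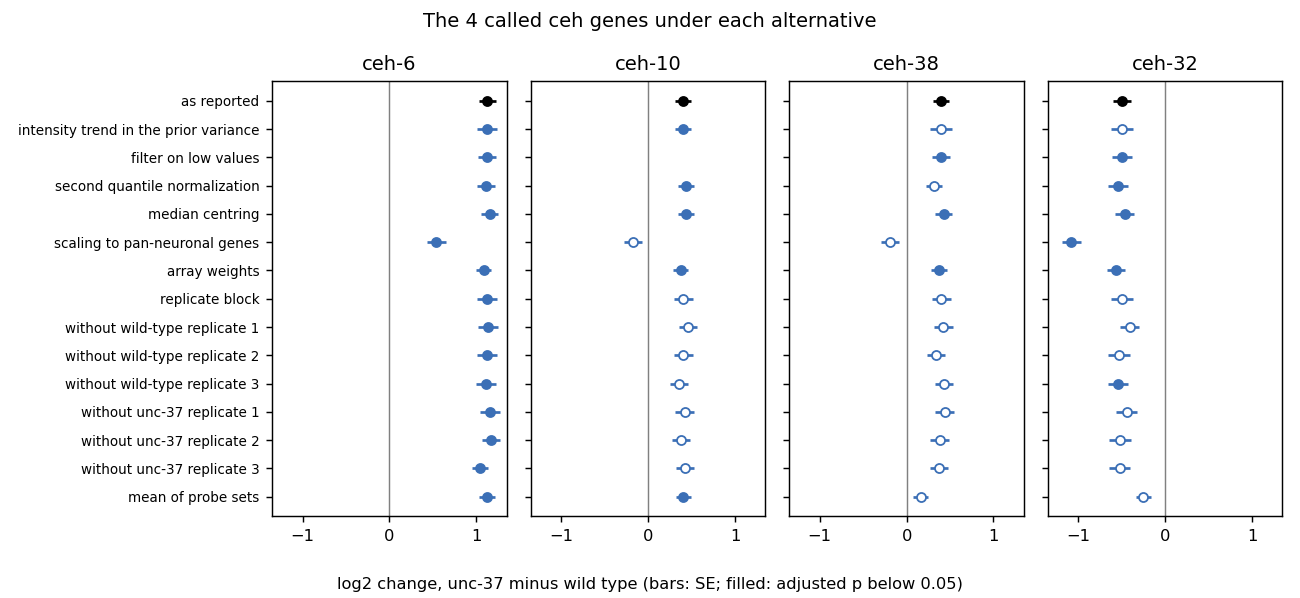
Log2 change (x axis) of the 4 called ceh genes as reported (black) and under 14 refits (blue), of which ceh-10 has no value in 1, the filter on low values, which removed it. Bars are SE and filled points have an adjusted p below 0.05. ceh-6 stays filled throughout, at 0.54 or more, while ceh-10 and ceh-38 open whenever an array is left out and turn below 0 under the scaling to pan-neuronal genes.

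Homeodomain genes without a ceh name were read beside them, Hox genes left out. Of 31 measured, 3 rose and 1 fell, with a median change of -0.08. Over all genes 3.94% were called higher and 2.81% lower. The rises were unc-4, from which the tag's promoter was taken (2.74 ± 0.31, adjusted p = 0.00245), vab-7, related to even-skipped (0.78 ± 0.10, 0.00484), and zag-1, a zinc finger homeodomain gene of neurons (0.54 ± 0.09, 0.00973). dve-1 fell (-0.58 ± 0.12, 0.0267). The list was put together with earlier results of these data known. The targeted gene, unc-37, was at 8.49 ± 0.04 (SD) in wild type and 8.99 ± 0.10 in unc-37 (0.50, 0.0159), and its other 2 probe sets were not called. All 10 A-class and cholinergic markers had mean levels above the median of all probe sets, and 7 of them rose.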

How the data were processed

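The deposited values are probe set intensities, which the submitters' processing notes credit to RMA; its version, the probe set definitions and the genome build were not stated in the labels used here. That the authors deposited a linear scale was read from the values, whose medians per array lay between 50.1 and 52.4 and maxima between 12124 and 15148. They were log2 transformed here, with no further normalization or filter. The platform's gene annotation names 1 gene for 20766 probe sets, several for 887 and none for 895, and only the first kind was named. All 58 members carry the same symbol in the RefSeq genes of WBcel235, used for names and neighbours only.

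Genotypes were compared in R 4.3.3 with limma 3.58.1 (lmFit, then eBayes), two-sided and adjusted by Benjamini-Hochberg across the 22548 probe sets. The fit was also run on values simulated under its own model, which cannot show how well that model suits these arrays. An exact permutation test of 3 arrays against 3 cannot go below p = 0.1. The number of arrays limits precision. The labels number all wild-type arrays (73 to 85) below all unc-37 arrays (89 to 98); should these numbers give the order of processing, that order cannot be told apart from genotype. The labels do not say whether replicates came from separate cultures, so p-values measure the spread between these arrays.

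Members, classes and lists were chosen with earlier results of these data known. Named are members that were called, had an adjusted p below 0.1 or another probe set called, or belong to the CUT, POU, sine oculis and PBC classes, others to account for them, and up to 4 called other homeodomain genes. After values were seen, ceh-20 was added to the refits, and dpy-5, dpy-7, dpy-13, sqt-3, phat-2, myo-1, myo-2 and unc-62 were picked. The planned search for motifs in proteins and promoters was not run, as no sequences were used here. Alternatives tried were an intensity trend of the prior variance, a filter at the median level, a second quantile normalization, median centring, scaling to 18 pan-neuronal genes, array weights, the replicate number as a block, each array left out, averaging the probe sets of a gene, and an adjusted p below 0.1. Figures were drawn with matplotlib 3.10.9.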

Additional observations from a re-analysis of the deposited data

How the results depend on the processing

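The 3 rises and 1 fall became 5 and 2 with array weights (10.3% of all genes called), 5 and 3 at an adjusted p below 0.1, 3 and 0 with the mean of probe sets and 1 and 0 with the replicate block; with single arrays left out they ranged from 1 to 2 and from 0 to 1. By limma, ceh-6 alone remained called under the replicate block, and with replicate 1 or 2 of either genotype left out; ceh-32 joined it without wild-type replicate 3 and ceh-48 without unc-37 replicate 3. Scaling to pan-neuronal genes, which lowers every change by 0.58 by construction, gave 1 higher and 51 lower (87.6% of all genes called), a median of -0.63 for the members (-0.60 for all genes), and turned ceh-10 (-0.18), ceh-20 (-0.14), ceh-38 (-0.19), ceh-48 (-0.047) and ceh-88 (-0.25). The median, -0.04 as reported, was 0.026 over the 26 members above the filter on low values. The intensity trend kept the counts and 2 of the 4 genes, with ceh-48 and ceh-81 called in place of ceh-32 (adjusted p = 0.0504) and ceh-38 (0.0999); with a second quantile normalization ceh-38 was at 0.32 (0.0939). Median centring called the same 4. With the mean of probe sets ceh-32 was at -0.25 (0.123), ceh-38 at 0.16 (0.329). The replicate numbers share only a number: same-numbered arrays of the groups had deviations that correlated at -0.187, -0.141 and -0.103, none best with its own number. Under that block ceh-10 (0.0959), ceh-32 (0.0928) and ceh-38 (0.109) were not called and ceh-6 was (0.00513). The cause of these shifts, other than the scaling's, was not tested. Dim signal limits 32 of the 58 genes.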

Other observations

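A further probe set is given by the platform's table to a ceh gene and a second gene together, so it belongs to neither alone and entered no count. Its log2 level was 5.27, 5.35 and 5.02 in wild type and 4.45, 4.67 and 4.72 in unc-37. The groups did not overlap, and the change of -0.60 ± 0.12 was called by limma (adjusted p = 0.0241). The signal was dim, at percentile 27.6 of all probe sets by mean level.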
